A study of Capra hircus with 8 samples.

Results

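The splicing factor families described here are the genes whose symbols in the deposited count table begin with SRSF, PRPF, LUC7L, RBM, SNRP or HNRNP, with RBM3 left out. These are 95 of the 18815 genes listed, namely 11 SRSF, 13 PRPF, 2 LUC7L, 38 RBM, 12 SNRP and 19 HNRNP genes, and 92 of them passed the filter on low counts. The RBM genes RBM7, RBM46 and RBMXL2 had at most 8 reads in any library and were not tested. Skin RNA of cashmere goats, kept for their fine undercoat, and of milk goats, kept for dairy, was sequenced after selection of polyadenylated RNA, with 1 library per breed in each of months 3, 6, 9 and 12 and 8 libraries in all. The cashmere group and the milk group therefore hold 4 libraries each, 1 per month, with no treatment named in the labels. The labels file the month under age, while the design speaks of months, so month of life and month of the year cannot be told apart. The labels give the tissue as skin, while their protocol text mentions embryos. They do not say how many animals gave a library, so the p-values measure no more than how these libraries vary, which may be technical.

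Splicing removes introns from nuclear transcripts and is carried out by the spliceosome, which assembles on each intron from small nuclear ribonucleoprotein particles (snRNPs) and many further proteins. SNRP genes encode Sm core and other snRNP proteins, PRPF genes encode precursor RNA processing factors that work in and around the snRNPs, and LUC7L genes encode partners of the U1 snRNP at the 5′ splice site. SRSF proteins carry arginine and serine rich domains and mostly favour the use of nearby exons, HNRNP proteins coat nascent transcripts and often oppose exon use, and RBM is a naming family for proteins with RNA-binding motifs, of which many but not all act in splicing. In skin these genes are expressed broadly, and the hair follicle, which cycles through growth, regression and rest, is a part of the tissue whose cell make-up changes through its cycle.

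Cashmere goat libraries held 7480053 to 8718429 reads each, and milk goat libraries held 11333734 to 13899750. The totals did not overlap, so depth and breed cannot be told apart. Levels are given as CPM, the reads of a gene relative to the library total after scaling by TMM factors, and 3 reads, which a count of 0 cannot exclude, stood for 0.231 to 0.395 CPM. Markers of the labelled tissue were present in both breeds. The 15 epidermal marker genes in the table summed to between 32141 and 35571 CPM in cashmere goats and between 30448 and 55144 CPM in milk goats, and the 14 fibroblast and matrix genes to between 4456 and 38799 CPM in cashmere goats and between 3713 and 23626 CPM in milk goats. The library of milk goats in month 9 stood apart. The 14 hair shaft and inner root sheath genes in the table summed to between 22807 and 75726 CPM in the cashmere goat libraries, to 179950 CPM in that milk goat library and to between 2995 and 64939 CPM in the other milk goat libraries. Its TMM factor was 0.783.

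Per kilobase of gene model, in the authors' FPKM, the highest mean level among the 95 genes belonged to HNRNPA2B1, an RNA-binding protein that packages nascent transcripts, with 269 ± 10.96 FPKM in cashmere goats and 304 ± 82.8 FPKM in milk goats (SD, n = 4 each). HNRNPD, which also binds AU-rich messages and influences their decay, had 143 ± 26.1 FPKM in cashmere goats and 199 ± 39.9 FPKM in milk goats. HNRNPU, a nuclear scaffold protein, had 147 ± 12.1 FPKM in cashmere goats and 143 ± 33.4 FPKM in milk goats. LUC7L3, a U1 partner, had 99.2 ± 21.1 FPKM in cashmere goats and 300 ± 120 FPKM in milk goats, so its place in the order differed between breeds. The highest SRSF and PRPF genes in both breeds were SRSF11 and PRPF38B, and the highest SNRP gene was SNRPD1, a protein of the Sm core ring, with 73.7 ± 11.7 FPKM in cashmere goats and 87.2 ± 21.97 FPKM in milk goats. The RBM gene with the highest mean over both breeds was RBM25, with 35.9 ± 9.61 FPKM in cashmere goats and 103 ± 38.2 FPKM in milk goats. In cashmere goats RBM39, RBM5 and RBMX lay above it, with means of 40.9, 40.0 and 39.8 FPKM. At the other end RBM11, RBM20 and RBM24, 3 genes known from human and mouse brain or muscle, were below 1 FPKM in both breed means. Reads of HNRNPA1, SNRPE, SNRPG and RBMX are uncertain, since these genes are known in human to have near-identical processed copies and how shared reads were counted is not stated in the labels.

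The main comparison asked which of these genes differed between the breeds, each month serving as a block. Of the 92 tested genes, 7 were lower in cashmere goats past an adjusted p of 0.05 and 1 was higher (edgeR quasi-likelihood test, adjusted over all genes tested). Among the lower ones were LUC7L3, RBMX2, RBM25, PRPF38B, SRSF11 and RBM41, at between 2.05 and 3.37 times lower levels, and the higher one was SNRPB, at a 1.58 times higher level. Among all 14085 genes tested, 468 were lower (3.32%) and 207 were higher (1.47%), so the 7.61% of these genes that were lower lay above the background and the 1.09% that were higher lay near it. The split over all genes depended on the scaling. With library totals 317 genes were lower and 302 higher, and with limma on log2(FPKM + 1) 347 were lower and 1027 higher, while the same 7 splicing factor genes were lower in both and 1 and 3 were higher. Since skin is a mixture of cells, fewer cells of a type and less RNA per cell cannot be told apart in any of these values.

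**Figure D1:**
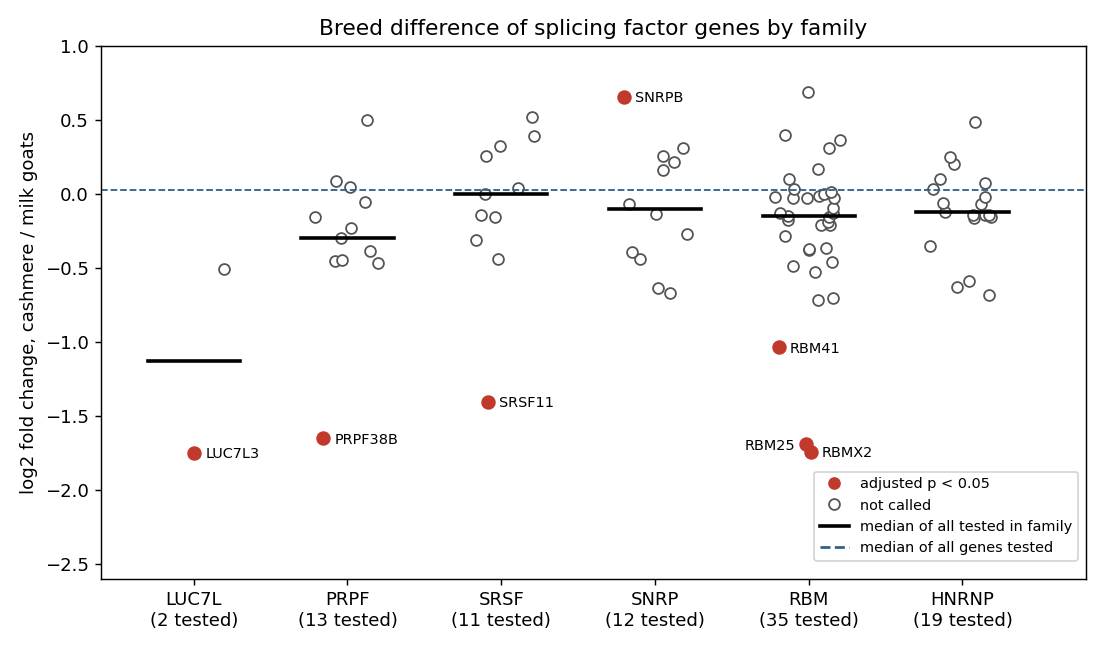
Log2 fold change between cashmere goats and milk goats for 91 of the 92 tested genes, in columns by family, with filled points past an adjusted p of 0.05, bars at the median of all tested genes of a family and a dashed line at the median of all genes tested. The 6 filled points below the line lie between -1.75 and -1.04, under the open points, whose lowest value is -0.72, while SNRPB at 0.66 is the filled point above the line.

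LUC7L3 is a homologue of yeast Luc7, a U1 snRNP protein that takes part in the choice of 5′ splice sites. It had 633, 419, 494 and 633 CPM in cashmere goats in months 3, 6, 9 and 12, against 1395, 1052, 2408 and 3015 CPM in milk goats. The lowest milk goat library lay above the highest cashmere goat library, and in milk goats months 9 and 12 were the highest. The log2 fold change was -1.75 ± 0.27 (SE, adjusted p = 0.0276). LUC7L, its relative, had 162, 108, 96.7 and 120 CPM in cashmere goats and 152, 130, 196 and 211 CPM in milk goats. The breeds overlapped for LUC7L, and its log2 fold change of -0.50 ± 0.20 did not pass the test (adjusted p = 0.170).

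PRPF38B, a relative of the tri-snRNP protein PRPF38A, had 326, 249, 314 and 420 CPM in cashmere goats, against 741, 633, 1678 and 1329 CPM in milk goats. All 4 cashmere goat libraries lay below all 4 milk goat libraries, and the log2 fold change was -1.65 ± 0.24 (adjusted p = 0.0276). PRPF38A itself had a log2 fold change of -0.46 ± 0.15 that did not pass (adjusted p = 0.112).

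SRSF11 encodes a nuclear protein with an arginine and serine rich domain. It had 420, 372, 426 and 512 CPM in cashmere goats, against 952, 689, 1464 and 1752 CPM in milk goats. The cashmere goat libraries were close to each other, and the milk goat libraries were all higher and further apart. Its log2 fold change was -1.41 ± 0.22 (adjusted p = 0.0287). RBM25, which is known to steer alternative splicing of apoptosis genes in human cells, had 328, 214, 312 and 434 CPM in cashmere goats, against 759, 587, 1479 and 1574 CPM in milk goats. Month 6 was the lowest month in both breeds, and the breeds did not overlap. The log2 fold change of RBM25 was -1.69 ± 0.22 (adjusted p = 0.0247), the lowest adjusted p among the 92 genes.

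RBMX2 is a relative of a yeast protein of the activated spliceosome. It had 16.6, 7.59, 6.87 and 10.5 CPM in cashmere goats, against 31.2, 23.0, 31.7 and 52.1 CPM in milk goats. The breeds did not overlap, and the log2 fold change was -1.74 ± 0.25 (adjusted p = 0.0270). RBM41, a relative of the minor spliceosome protein RNPC3, had 24.2, 25.9, 19.4 and 23.8 CPM in cashmere goats, against 56.7, 36.4, 45.2 and 55.0 CPM in milk goats. Its cashmere goat values stayed within a narrow band below all milk goat values, and the log2 fold change was -1.04 ± 0.16 (adjusted p = 0.0287).

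SNRPB, the Sm B protein of the core ring, was the gene that went the other way. It had 23.6, 34.4, 42.8 and 35.4 CPM in cashmere goats, against 18.3, 23.4, 24.4 and 19.2 CPM in milk goats. Within each month the cashmere goat library was the higher one, but the breeds overlapped, since month 3 of cashmere goats lay below month 9 of milk goats. The log2 fold change was 0.66 ± 0.14 (adjusted p = 0.0478).

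**Figure D2:**
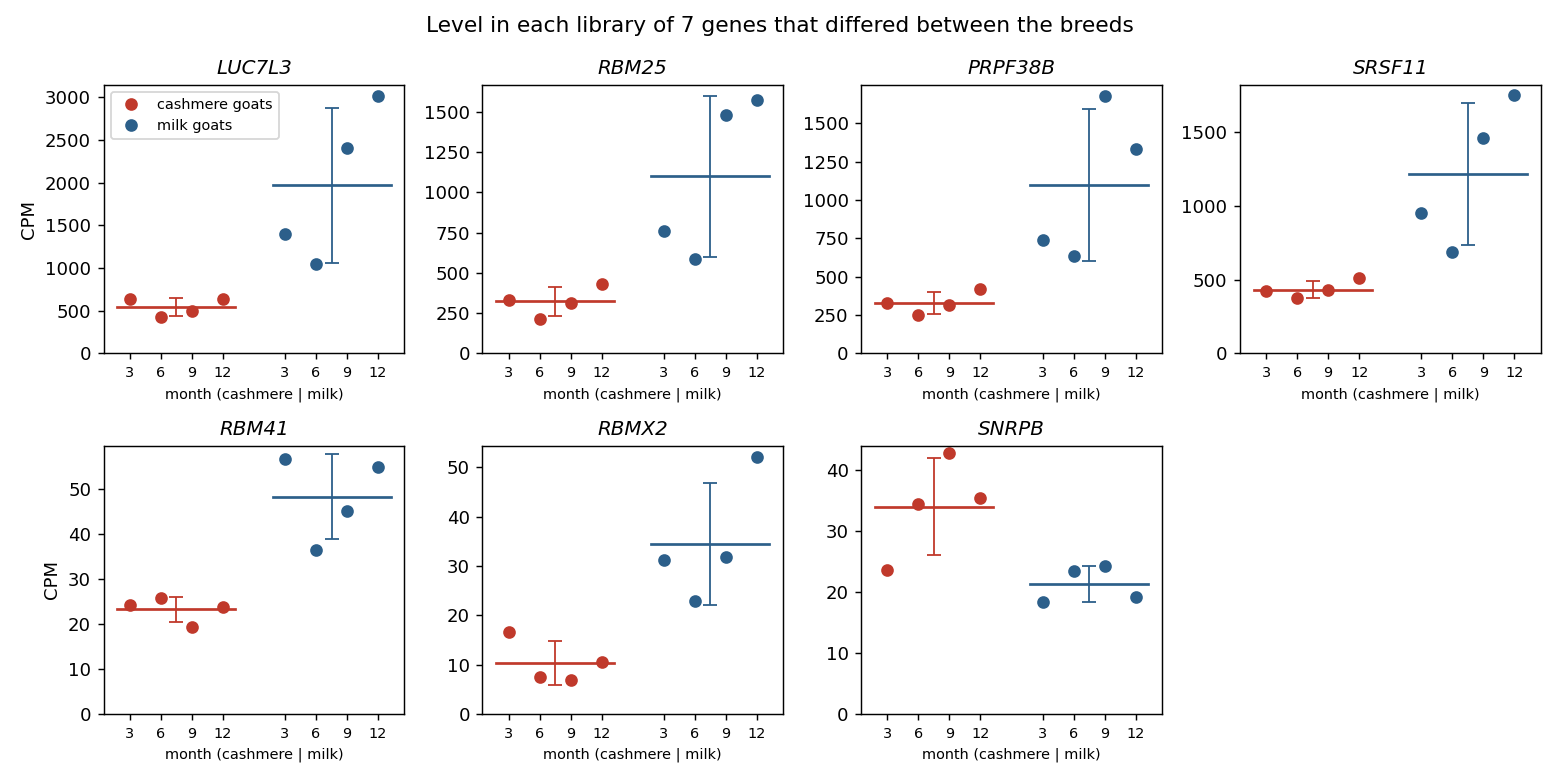
CPM of 7 genes that passed the breed test, 1 panel per gene with its own axis from 0, points for single libraries in months 3, 6, 9 and 12, cashmere goats left and milk goats right in each panel, and lines with bars for the mean ± SD of 4 libraries. In the 6 genes other than SNRPB the cashmere goat points lie below all milk goat points, and in LUC7L3, RBM25, PRPF38B and SRSF11 the milk goat points of months 9 and 12 lie above those of months 3 and 6.

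Without 1 library of month 3, 6 or 9 of either breed, 0 of these genes passed the test, and among all genes at most 3 were lower and at most 2 were higher. Without the cashmere goat or the milk goat library of month 12, 8 were lower, the same 7 and PRPF38A, and 0 were higher. The fold changes of LUC7L3, RBMX2, RBM25, PRPF38B, SRSF11 and RBM41 kept their sign in each of these runs, with log2 values between -2.06 and -0.96 and adjusted p-values up to 0.112.

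Taken as 1 set, the 7 lower genes made up 0.215, 0.148, 0.180 and 0.231% of reads in cashmere goats in months 3, 6, 9 and 12, against 0.459, 0.335, 0.592 and 0.818% in milk goats. Their median log2 ratio within a month was -1.18, -1.33, -2.17 and -1.78, so the difference was present in each month and larger in months 9 and 12. These genes were chosen by this contrast, and the values describe them. The 85 other tested genes had a median log2 fold change of -0.13, against 0.03 over all genes tested. Of the 92 genes, 64 had a negative fold change (69.6%), against 47.2% of all genes tested, and 32 had an unadjusted p under 0.05 (34.8%), against 26.9% of all genes. The 4 cashmere goat libraries lay below the 4 milk goat libraries in 13 of the 92 genes, where the background was 8.02%, and above them in 5, where it was 6.46%.

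The families differed in how far their genes were from the background. In the LUC7L family, with 2 genes, the median log2 fold change was -1.13. In the PRPF family, with 13 genes, it was -0.30, with 10 negative values and 4 genes whose cashmere goat libraries all lay lower. The share of such genes over all genes tested was 8.02%. The LUC7L and PRPF medians stayed negative under each scaling tried. The medians of the other families were -0.15 for 35 RBM genes, -0.12 for 19 HNRNP genes, -0.10 for 12 SNRP genes and -0.00089 for 11 SRSF genes. On the log2(FPKM + 1) scale the medians of these last 4 families were above 0, at 0.05 for RBM, 0.09 for HNRNP, 0.11 for SNRP and 0.21 for SRSF, but there the median of all genes was also shifted to 0.16. With scaling by library totals the median of all genes moved to 0.14, and the median of the 92 genes was 0.17 below it, as with TMM factors.

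Among the PRPF genes that did not pass, PRPF39, a U1-associated protein, and PRPF6, a tri-snRNP protein, had cashmere goat libraries that all lay lower, with log2 fold changes of -0.39 and -0.45. PRPF8, the core protein of the U5 snRNP at the heart of the spliceosome, had 195, 181, 200 and 211 CPM in cashmere goats and 169, 161, 131 and 104 CPM in milk goats. Its libraries did not overlap in the opposite direction, with a log2 fold change of 0.50 ± 0.18 (adjusted p = 0.135). A further 8 PRPF genes, which include PRPF3, PRPF4 and PRPF31 of the U4/U6 snRNP, PRPF18 of the second step, PRPF19 of the complex named after it and the kinase PRPF4B, ranged in log2 fold change from -0.46 for PRPF38A to 0.09 for PRPF19. These genes and the others described below that did not pass the test were chosen after their values were seen, unless the rule for named genes took them.

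In the SRSF family SRSF11 was the only one of 11 genes that passed. SRSF3, a short SR protein, had 200, 196, 232 and 223 CPM in cashmere goats and 142, 158, 165 and 129 CPM in milk goats, so its libraries did not overlap and lay higher in cashmere goats. Its log2 fold change of 0.52 ± 0.14 did not pass in edgeR (adjusted p = 0.0765), while it passed in DESeq2 and in limma on FPKM. SRSF1, the founding SR protein, had a log2 fold change of -0.31 ± 0.17 (adjusted p = 0.268), and the other 8 genes ranged from -0.44 for SRSF4 to 0.39 for SRSF12. In the second deposited table, described below, the sign was opposite for SRSF1, at 0.11 ± 0.15, and for SRSF12, at -0.27 ± 0.22. It was also opposite for SRSF10, at 0.46 ± 0.19 against -0.14 in the first table, and for SRSF6, at -0.01 ± 0.15 against 0.26. The SRSF10 row there had 120 to 170 reads per library, against 782 to 1553 in the first table. There SRSF3 stayed positive, at 0.46 ± 0.17.

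In the SNRP family the Sm core genes did not share a direction. SNRPB was higher, SNRPD1 had a log2 fold change of -0.44 ± 0.18 (adjusted p = 0.173) and SNRPF one of -0.67 ± 0.16 (adjusted p = 0.0560). SNRPD1 had 70.9, 95.4, 104 and 115 CPM in cashmere goats and 93.5, 112, 213 and 122 CPM in milk goats. Its milk goat library of month 9 was far above the other 7 libraries, which overlapped between breeds. SNRPA, of the U1 snRNP, had 30.1, 32.6, 42.8 and 33.4 CPM in cashmere goats and 23.4, 31.4, 33.4 and 24.4 CPM in milk goats, and the remaining 8 genes, SNRPA1, SNRPB2, SNRPC, SNRPD2, SNRPD3, SNRPE, SNRPG and SNRPN, ranged in log2 fold change from -0.63 to 0.26. The -0.63 of SNRPC rests on 6 to 26 reads per library, while the second deposited table, described below, gave it 490 to 845 reads and a log2 fold change of 0.22 ± 0.14 (adjusted p = 0.338).

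Of the 35 tested RBM genes, 3 were lower (8.57%) and 0 were higher past the threshold in edgeR. The shares over all genes were 3.32% and 1.47%. At an unadjusted p under 0.05 were 12 of 35 RBM genes, against 26.9% of all genes. Beside RBM25, RBMX2 and RBM41, the cashmere goat libraries all lay lower in RBM39, RBM6 and RBM27. That made 6 of 35 genes, where the background was 8.02%. RBM39, a partner of the U2AF splice site factors, had 237, 167, 182 and 196 CPM in cashmere goats and 287, 238, 373 and 406 CPM in milk goats, with a log2 fold change of -0.72 ± 0.18 (adjusted p = 0.0691). RBM6 had a log2 fold change of -0.71 ± 0.19 (adjusted p = 0.0719), and RBM5, its relative, one of -0.46 ± 0.17 (adjusted p = 0.149). RBM8A, the Y14 protein of the exon junction complex, had -0.13, RBM22 of the activated spliceosome -0.01, RBM17, a splice site factor, -0.19 and RBMX, also called hnRNP G, 0.10 on the same log2 scale. RBM15 and RBM15B, which belong to the messenger RNA methylation complex, had -0.09 and 0.17. The log2 fold changes of all 35 genes lay between -1.74 for RBMX2 and 0.69 for RBM11, a gene with at most 2.77 CPM.

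In the HNRNP family 0 of 19 genes passed the breed test in edgeR. At an unadjusted p under 0.05 were 4 of 19, against 26.9% of all genes. In DESeq2 HNRNPD, HNRNPH3 and HNRNPUL2 passed. HNRNPUL2, a relative of the scaffold protein HNRNPU, had 461, 412, 369 and 411 CPM in cashmere goats and 598, 531, 725 and 637 CPM in milk goats. Its breeds did not overlap, with a log2 fold change of -0.59 ± 0.18 (adjusted p = 0.0957). HNRNPD had 347, 398, 409 and 562 CPM in cashmere goats and 523, 569, 1058 and 669 CPM in milk goats, with a log2 fold change of -0.68 ± 0.22 (adjusted p = 0.110). HNRNPL, HNRNPLL and HNRNPA0 did not overlap in the other direction, with log2 fold changes of 0.25, 0.49 and 0.20 and adjusted p-values of 0.244, 0.111 and 0.304. So 1 of 19 genes lay wholly below and 3 wholly above, against 8.02% and 6.46% of all genes.

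In many HNRNP genes a single library, that of milk goats in month 9, lay above the rest. HNRNPA2B1 had 1566, 1555, 1647 and 1752 CPM in cashmere goats and 1808, 1784, 3533 and 1654 CPM in milk goats. The month 9 value of milk goats lay far above the other 7 libraries, which were close together. HNRNPU had 1564 CPM in that library and between 760 and 1029 CPM in the other 7. Centred on each gene's mean, the family's median level was -0.13, -0.14, -0.03 and 0.12 in cashmere goats in months 3, 6, 9 and 12 and -0.04, -0.06, 0.41 and -0.13 in milk goats, on the log2 scale. The month 9 library was the highest of the 4 milk goat libraries in 12 of 19 HNRNP genes (63.2%), against 30.3% of all genes tested and 44.6% of the 92 genes. This was not particular to HNRNP genes. The share was 54.5% for SRSF, 41.7% for SNRP, 38.5% for PRPF, 37.1% for RBM and 0% for LUC7L. In the further splicing lists described below it was 38.7 to 58.3%. The median log2 excess of that library over the mean of the other milk goat libraries was 0.42 for HNRNP, 0.42 for LUC7L and 0.36 for SNRP, against -0.02 over all genes. HNRNPM, HNRNPC, HNRNPD, HNRNPAB and HNRNPR were 0.79 to 0.96 higher there in log2 than the mean of the other milk goat libraries, while HNRNPDL was 0.36 lower and HNRNPL and HNRNPA0 differed by less than 0.05. Without scaling factors the HNRNP genes together took 0.599 to 0.689% of reads in cashmere goats. They took 0.844% in that milk goat library and 0.642 to 0.728% in the other milk goat libraries. This sum is weighted to abundant genes such as HNRNPA2B1, with 38428 reads there, and does not show the direction of each gene. In milk goats HNRNPUL2 had 7888 of 13899750 reads in month 9 and 7347 of 11333734 in month 3, a lower share in month 9. The counts of genes and the centred levels above rest on the TMM factors.

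**Figure D3:**
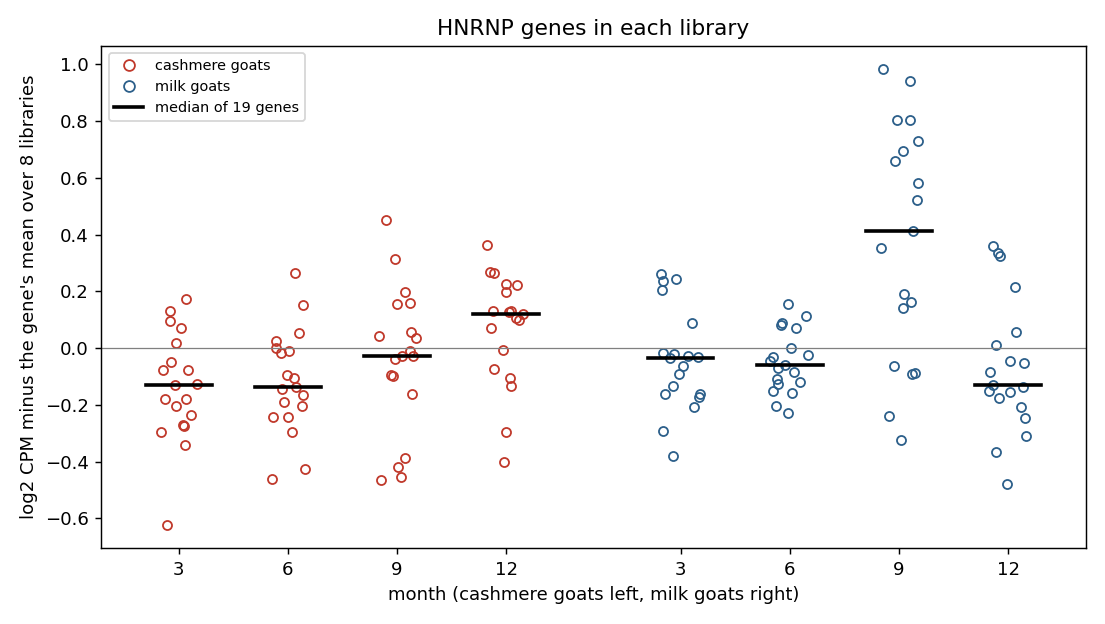
Log2 CPM of each of the 19 HNRNP genes minus the gene's mean over 8 libraries, by month, cashmere goats left and milk goats right, 1 open point per gene and library, and bars at the median of 19 genes. The median of the month 9 library of milk goats is 0.41, and the medians of the other 7 libraries lie between -0.14 and 0.12.

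That library also held the highest levels of other lists among the milk goat libraries. All 14 hair shaft and inner root sheath genes and 29 of 30 cell division genes had their milk goat maximum there, and the division genes summed to between 779 and 1569 CPM in cashmere goats, to 1987 CPM in that milk goat library and to between 628 and 1007 CPM in the other milk goat libraries. The part of hair follicle growth and dividing cells in the HNRNP values was not tested.

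The breed ratio of each family was also followed by month, with 1 library against 1 and no test. For all 92 genes the median log2 ratio was -0.07, -0.14, -0.36 and -0.11 in months 3, 6, 9 and 12, against 0.022, 0.0037, 0.062 and -0.020 over all genes. Month 9 had the lowest median in the LUC7L, PRPF, RBM and HNRNP families, and shared it with month 12 in the SNRP family. The HNRNP ratio was -0.08, -0.08, -0.45 and 0.19, so in month 12 it was above 0, where 4 of 19 genes had a negative ratio. The PRPF ratio was -0.12, -0.20, -0.63 and -0.20, and the SNRP ratio was 0.12, -0.08, -0.23 and -0.23. The SRSF ratio stayed between -0.11 and 0.02. Without month 9 of cashmere goats the median log2 fold change of the 92 genes was -0.053 and that of the HNRNP family 0.035, and without month 9 of milk goats these were -0.043 and 0.045, against -0.14 and -0.12 with all libraries.

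**Figure D4:**
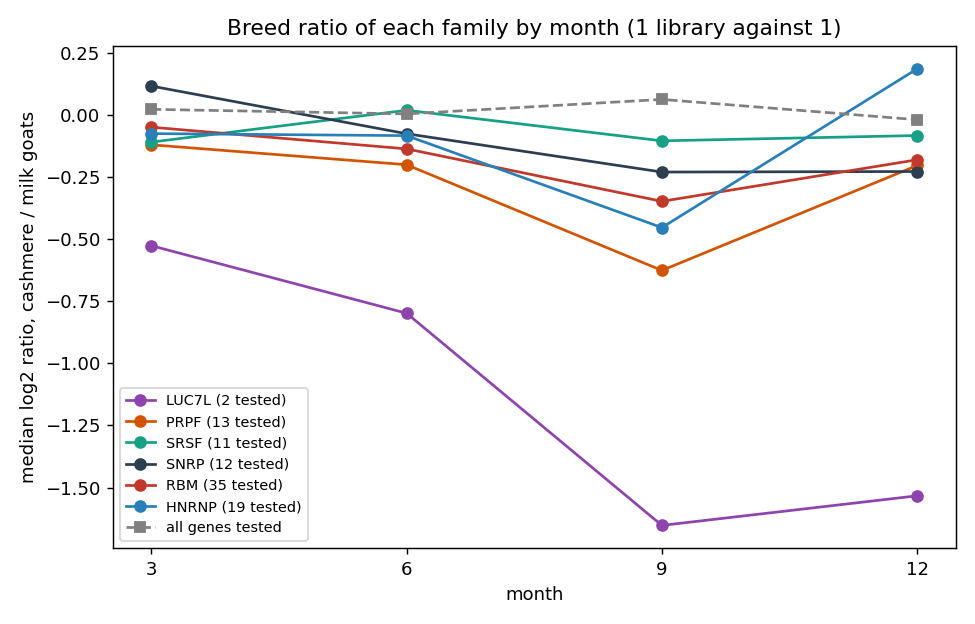
Median log2 ratio of the cashmere goat library to the milk goat library of the same month for each family (coloured lines) and for all genes tested (grey dashed line), by month, without replicates within a month. LUC7L lies lowest in each month, at -0.53, -0.80, -1.65 and -1.53, and the HNRNP line is at -0.45 in month 9 and at 0.19 in month 12, with the all-gene line between -0.02 and 0.06.

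The second question was whether these genes changed over months in both breeds alike. In a joint test of the month terms 0 of 92 genes passed in edgeR, as did 0% of all genes tested, and 10 of 92 had an unadjusted p under 0.05, against 13.4% of all genes. DESeq2 called 3, RBM25 and SRSF5 among them, and 536 genes in all, and limma on FPKM called 0. Months 6 and 9 were also set against months 3 and 12, a contrast called seasonal here although the months may be months of life. Within cashmere goats hair genes and cell division genes summed highest in month 12, at 75726 and 1569 CPM, so month 12 was not a month of low hair gene levels in that breed. Centred on each gene's mean, the hair genes had median log2 levels of -0.29, 1.08, 1.19 and 1.07 in its months 3, 6, 9 and 12. Within cashmere goats all 14 hair genes were still higher in months 6 and 9 together, with a median log2 difference of 0.59. In the seasonal contrast over both breeds 0 of 92 genes passed in edgeR and 0% of all genes, with 10 at an unadjusted p under 0.05 (10.9%), against 15.5% of all genes. DESeq2 and limma called 0 of the 92 as well. Over all genes the month result depended on the month 12 libraries of both breeds, and the seasonal result on that of cashmere goats. Leaving out that of cashmere goats, 1180 of 14352 genes changed with month and 1926 between the seasons. Among them were 1 and 3 of the splicing factor genes. Leaving out that of milk goats, 109 of 14075 genes changed with month and 2 between the seasons, with 0 of the splicing factor genes in either.

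The lowest unadjusted p in this contrast belonged to SRSF9, an SR protein of broad expression, which had 99.5, 122, 141 and 119 CPM in cashmere goats and 76.8, 107, 120 and 83.7 CPM in milk goats. Month 9 was its highest and month 3 its lowest month in both breeds, with a log2 difference of 0.39 ± 0.13 (adjusted p = 0.242). RBM4, an alternative splicing regulator, had 50.1, 60.4, 61.3 and 49.5 CPM in cashmere goats and 39.8, 42.7, 61.1 and 37.1 CPM in milk goats, and a log2 difference of 0.35 ± 0.13 (adjusted p = 0.276). RBMX2 had a difference of -0.75 ± 0.24 (adjusted p = 0.245), months 6 and 9 together being lower. In milk goats its month 9 value of 31.7 CPM was not below its month 3 value of 31.2 CPM. The seasonal medians of the families, again as a description, were 0.16 for SNRP, with 10 of 12 genes positive, 0.12 for HNRNP, with 13 of 19 positive, -0.05 for PRPF, -0.13 for RBM, -0.14 for SRSF and -0.37 for LUC7L, against -0.01 over all genes. Within cashmere goats they were, in this order, 0.11, -0.06, -0.13, -0.09, -0.22 and -0.47, and within milk goats 0.15, 0.16, 0.05, -0.04, -0.02 and -0.25. The HNRNP median thus differed in sign between breeds, with 11 of 19 genes negative in cashmere goats and 17 of 19 positive in milk goats. The PRPF median also differed in sign. Over both breeds cell division genes had a seasonal median of 0.61 and hair genes one of 2.16. Within cashmere goats these medians were 0.20 and 0.59 and within milk goats 1.01 and 3.64. For breed by season 12 of 14 hair genes but 0 of 30 division genes had an unadjusted p under 0.05 (edgeR), against 3.39% of all genes, with 0 past the threshold. Their part in the family values was not tested.

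The third question was whether the seasonal difference itself differed between breeds. In edgeR 0 of 92 genes passed the breed by season test, and 0% of all genes passed. At an unadjusted p under 0.05 was 1 of the 92 (1.09%), against 3.39% of all genes. DESeq2 and limma also called 0 of the 92. The gene with the lowest p was RBMS3, a cytoplasmic RNA-binding protein, with 38.8, 38.7, 37.9 and 33.6 CPM in cashmere goats and 68.5, 48.1, 35.9 and 61.5 CPM in milk goats. Its cashmere goat values were nearly level, and its milk goat values were lower in months 6 and 9. The log2 interaction of 0.71 ± 0.29 had an unadjusted p of 0.0398 and an adjusted p of 0.9999 (edgeR). These RBMS3 values rest on the first table's gene model, with 255 to 841 reads per library. The second deposited table, described below, gave RBMS3 2 to 6 reads per library, and it was not tested there. RBM24, a splicing regulator of muscle in mouse, had 2.52, 2.17, 1.60 and 1.98 CPM in cashmere goats and 3.26, 1.93, 1.10 and 5.90 CPM in milk goats. RBM47, an RNA-binding cofactor of RNA editing expressed in epithelia, had 49.0, 51.4, 41.2 and 40.0 CPM in cashmere goats and 44.4, 33.3, 24.3 and 38.4 CPM in milk goats. Their interactions of 1.32 ± 0.69 and 0.58 ± 0.33 did not pass either. Within milk goats alone, 1.33% of all genes passed the seasonal contrast, 188 genes, while 0 of these 92 did, with 3 at an unadjusted p under 0.05 (3.26%), namely RBM24, RBMS3 and SRSF9, against 12.2% of all genes.

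To set the families beside the rest of the splicing machinery, 7 further lists were examined with 180 tested genes in all. Of these, 21 were lower in cashmere goats (11.7%) and 1 was higher (0.556%), with a median log2 fold change of -0.19, against 3.32% and 1.47% of all genes. In 42 of them the cashmere goat libraries all lay below the milk goat libraries and in 6 they all lay above, against 8.02% and 6.46% of all genes. Whether these shares differ from those of the families was not tested.

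Among 31 SR-related proteins and SR kinases, which share the arginine and serine rich domain or modify it, 6 were lower and 28 had a negative fold change, with a median of -0.49. PNISR, an SR-related nuclear protein, had 596, 382, 446 and 578 CPM in cashmere goats and 1390, 980, 2104 and 2263 CPM in milk goats, a log2 fold change of -1.70 ± 0.24 (adjusted p = 0.0267). SREK1 had 308, 215, 260 and 315 CPM in cashmere goats and 565, 424, 1132 and 1362 CPM in milk goats, a log2 fold change of -1.52 ± 0.28 (adjusted p = 0.0362). As in LUC7L3, months 9 and 12 of milk goats were on top and month 6 was the lowest month of each breed in both genes.

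Of 24 genes in a list of further proteins of the U1, U5 and minor snRNPs, 6 were lower, with a median of -0.39. They include ZRSR2, RNPC3 and PDCD7, which belong to the minor spliceosome, FNBP4 and DDX46, a helicase that works with the U2 snRNP but was counted in this list. ZRSR2 had 26.8, 19.5, 25.1 and 29.6 CPM in cashmere goats and 53.7, 47.9, 79.2 and 108 CPM in milk goats, a log2 fold change of -1.46 ± 0.17 (adjusted p = 0.0218). DDX46 had a log2 fold change of -1.22 ± 0.18 (adjusted p = 0.0276). Of 28 proteins of the Prp19 complex, helicases and second-step factors 4 were lower, with a median of -0.26, among them CWC27 at -1.10 ± 0.17 and SYF2 at -0.92 ± 0.16. Of 20 proteins of the U2 snRNP and the 3′ splice site 2 were lower, HTATSF1 at -1.17 ± 0.17 and U2SURP at -0.85 ± 0.15, with a median of -0.08.

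Of 22 genes of the exon junction complex and RNA export 3 were lower, namely THOC2 at -1.63 ± 0.22, UPF2 at -1.48 ± 0.26 and UPF3B, with a median of -0.03. Of 13 Sm-like LSM genes 0 passed in edgeR, with a median of -0.10. At an unadjusted p under 0.05 were 5 of them, against 26.9% of all genes. Of 42 other splicing regulators, such as the PTBP, CELF, MBNL and RBFOX proteins, 0 were lower and 1 was higher, with a median of -0.04. The higher one was ELAVL1, which stabilises AU-rich messages, with 43.4, 45.6, 45.4 and 41.7 CPM in cashmere goats, against 30.6, 33.1, 26.8 and 26.3 CPM in milk goats (log2 fold change 0.60 ± 0.12, adjusted p = 0.0430).

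Markers of other cell types moved with the same contrast. Among 12 smooth muscle genes the test called 4 lower and all 12 had a negative fold change, with a median of -0.77, and their sum lay between 3590 and 4929 CPM in cashmere goats and between 5609 and 11275 CPM in milk goats. DES, the muscle intermediate filament, had 211, 234, 129 and 186 CPM in cashmere goats and 442, 480, 553 and 944 CPM in milk goats. CALD1, an actin-binding protein, had 1300, 1199, 1446 and 1630 CPM in cashmere goats and 2445, 1901, 5062 and 5535 CPM in milk goats, so months 9 and 12 of milk goats were also its highest libraries. Of 10 neural and Schwann cell genes 4 were lower, where 3.32% of all genes tested were lower. CHGB, a protein of secretory granules, had 0.114, 0.361, 0.344 and 0.132 CPM in cashmere goats, at or near the level of 3 reads, and 7.41, 3.31, 8.83 and 11.6 CPM in milk goats. NEFH, a neurofilament, had 0.687, 0, 0 and 5.14 CPM in cashmere goats and 1.22, 0.077, 2.85 and 79.0 CPM in milk goats, so month 12 was its highest month in both breeds. The neural list summed to between 51.1 and 107 CPM in cashmere goats and between 85.4 and 264 CPM in milk goats. Both breeds had reads of each list.

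Of 15 epidermal genes 3 were higher in cashmere goats, among them KLK7 at a log2 fold change of 1.38 ± 0.26 and KLK5 at 1.06 ± 0.16, with a median of 0.46. Among all genes tested 1.47% were higher. Of 20 immediate early genes, which respond quickly to stimuli, 3 were higher, among them DUSP1 at 0.93 ± 0.14 and CTGF at 0.78 ± 0.15, with a median of 0.41. Of 39 cytoplasmic ribosomal protein genes 2 were lower (5.13%), RPS23 at -0.79 ± 0.17 and RPL23 at -0.66 ± 0.14, with a median of -0.11. Among all genes tested 3.32% were lower. Of 14 hair genes and 30 division genes 0 passed in edgeR, with 3 and 13 at an unadjusted p under 0.05 and medians of 1.36 and 0.46. Over all genes tested 26.9% had an unadjusted p under 0.05, the background for these and the following counts. Fibroblast, endothelial, skeletal muscle and immune lists had 0 genes that passed in edgeR, with 0, 2, 2 and 1 at an unadjusted p under 0.05. Their medians were -0.04, -0.12, -0.72 and 0.02, and all 6 skeletal muscle genes tested had a negative fold change. The part of any of these lists in the splicing factor results was not tested.

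The same breed test was run on a second deposited count table with another gene set, in which 89 rows of these families, with 82 distinct symbols, were tested. There 7 symbols were lower, where 4.48% of all 14994 genes tested were lower, and 3 were higher, where 2.97% of all genes were higher. LUC7L3, RBM25, RBM41 and SRSF11 were among those lower in both tables, and SNRPB was higher in both. These tables come from the same libraries, so the second is no independent replicate. RBM27 and SNRPF were lower, and PRPF19 and RBM45 were higher, past the threshold in the second table and not in the first, where SNRPF passed in DESeq2 and without a filter. Whether the tables differ was not tested. PRPF38B had a mean of 17.9 CPM in the second table and a log2 fold change of -0.49 ± 0.27 that did not pass (adjusted p = 0.256), so its call rests on the first table's gene model. RBMX2 was not found by symbol in the second table.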

How the data were processed

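Directional libraries of polyadenylated RNA from goat skin were sequenced, per the labels' protocols. Bowtie2 is named in the submitters' processing notes; its role, its version and the genome build were not given in the sources used here. No coordinates are given. The authors deposited raw read counts per gene in 2 tables with different gene sets, without normalization, and FPKM values for the genes of the first table, computed by the authors. The first table is the main one. Its cashmere goat columns carry a transliterated word, and columns were matched to samples by breed word and month.

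Tests on counts used edgeR 4.0.16 (R 4.3.3) after filterByExpr on breed (14085 of 18815 genes kept) and TMM scaling, in a model of month and breed with 3 residual degrees of freedom. Breed by season used a model of breed, season (months 6 and 9 or 3 and 12) and their product, with 4. P-values were adjusted by Benjamini-Hochberg over all genes tested, threshold 0.05. Log2 CPM for ratios within a month used a prior count of 2, and standard errors were derived from each fold change and the F statistic of its test. Each test was two-sided. Reads carry no molecular identifiers and PCR copies are not independent, so the limit of 3 reads covers counting error only. The fitting procedure was tested on simulated data.

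Members and lists were chosen with earlier results of these data known. In each family the named genes were up to 4 lower and 4 higher past the threshold with at least 5 CPM, the gene with the highest mean FPKM and, where none passed, the 2 with the lowest p; over all members, the 3 with the lowest p for season and for breed by season; and up to 2 past the threshold in each other list. Alternatives were RLE factors, library totals, no filter, a stricter filter (the minimum in at least 4 libraries), no month term, the second table, DESeq2 1.42.0, limma 3.58.1 on log2(FPKM + 1) and log2(FPKM + 0.1), a cosine and sine of the month, and leaving out each library. No sequences of these genes were used here. A few genes that the rule takes or the counts include are not reported here by name.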

Additional observations from a re-analysis of the deposited data

Results flagged for a closer look

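In 46 groups of 4 libraries, the highest and lowest library was compared with the rest, a comparison that chance passes in about 1 in 20 groups. HNRNPA2B1 in milk goats was set apart by month 9, at 3533 CPM, far above the other 3 milk goat libraries. RBMS3 in cashmere goats was set apart by month 12, at 33.6 CPM, below the other 3 cashmere goat libraries, which lay within 1 CPM of each other. That RBMS3 value rests on the first table's gene model. The median centred level of the SRSF family in cashmere goats was set apart by month 12, at 0.0196 on the log2 scale, with the other 3 months between -0.101 and -0.0935.

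The second count table held symbols of these families that the first table did not list. HNRNPF had a mean of 387 CPM there and a log2 fold change of -0.03 ± 0.17 (adjusted p = 0.927, edgeR). LUC7L2, the third LUC7L gene, had a mean of 354 CPM. It had 253, 251, 248 and 307 CPM in cashmere goats and 359, 344, 575 and 491 CPM in milk goats in months 3, 6, 9 and 12, so the breeds did not overlap, and its log2 fold change of -0.71 ± 0.19 did not pass (adjusted p = 0.0566). RBM14 had a mean of 62.0 CPM, RBM12 one of 43.5 CPM and RBM4B one of 31.3 CPM, with log2 fold changes of 0.17, 0.42 and 0.22 that did not pass either.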

How the results depend on the processing

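The calls of the breed test depended on the libraries and the tool. Leaving out 1 library at a time gave 0 to 8 lower genes among the 92 and 0 higher ones, 0 to 1 changed with month (RBM12B, without month 12 of cashmere goats) and 0 to 3 changed between seasons (RBM24, RBMS1 and RBMX2, without the same library, which gave 1180 and 1926 of 14352 genes in all), against 7, 1, 0 and 0. The SRSF median then ranged from -0.088 to 0.018. Such runs keep 2 residual degrees of freedom, and over all genes they gave 0 to 524 lower and 0 to 345 higher genes, against 468 and 207. DESeq2 called 15 lower, 2 higher and 3 changed with month, and over all genes 1087 lower, 604 higher, 536 with month, 343 with season and 100 for breed by season. Without a month term 6 were lower and 0 higher, with 268 and 78 over all genes. The second table gave 3 higher ones, and 671 and 446 over all genes. Limma gave 3 higher at a pseudocount of 1 and 2 at 0.1. The split of lower and higher calls over all genes was 317 and 302 with library totals, 347 and 1027 with limma at a pseudocount of 1 and 320 and 841 at 0.1. Medians on the limma scale at pseudocounts of 1 and 0.1 were 0.065 and 0.071 for all 92 genes, 0.21 and 0.21 for SRSF, 0.048 and 0.064 for RBM and 0.11 and 0.11 for SNRP, beside all-gene medians of 0.16 and 0.23. The SRSF median was 0.12 with library totals and 0.11 in the second table. The cause of these shifts was not tested.

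The 7 lower genes kept their sign in each alternative in which they were found. Without a filter, SNRPF was lower as well. Of the alternative values of single named genes, 229 kept their side of the threshold, 53 lost it and 3 gained it, and 0 changed sign past the threshold. The month term already pairs the 2 libraries of a month, and the labels give no replicate numbers for any other pairing. RBM11, RBM20, RBM24, SNRPC and SNRPE had few reads in the first table, where only large differences were detectable. For SNRPC and SNRPE this belongs to the first table's gene models, since the second table gave rows of 490 to 845 and 459 to 1000 reads per library.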
